A study of Mus musculus with 10 samples.

Results

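The genes described here belong to 5 families of secreted proteins, many of them found in the lumen of the epididymis: the Kazal-type serine protease inhibitors (Spink), the whey acidic protein or WFDC inhibitors (Wfdc), the cystatins (Cst), the lipocalins (Lcn) and the cysteine-rich secretory proteins (Crisp). Members were taken by symbol, as every gene whose name starts with one of these family names followed by a digit, apart from Wfdc1, which the rule leaves out. This gave 49 of 19505 genes named on the array: 12 Spink, 17 Wfdc, 8 Cst, 10 Lcn and 2 Crisp genes. Each of the 49 had 1 probe set. The rule itself reads symbols only.

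The measurements come from mouse Wolffian ducts, the embryonic tubes that become the epididymis and vas deferens, taken at 16.5 days post-coitum and kept for 72 h as explants at the air-liquid interface. In 4 cultures the medium held 0.5 µM SAG, which activates hedgehog signalling through Smoothened, in 3 cultures 25 µM cyclopamine, which inhibits Smoothened, and 3 cultures, called vehicle in the sample titles, had culture medium. RNA was measured on Affymetrix arrays, 1 per culture, and the series describes the cultures as biological replicates. The sample titles carry the word pronephros, while the protocols describe Wolffian ducts. The sources used here do not name the mouse strain, the sex, the number of ducts per array or any solvent in the vehicle medium. An explant holds epithelium together with the surrounding mesenchyme, so fewer cells of a type and less RNA per cell cannot be told apart.

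In the adult epididymis the epithelium secretes these proteins region by region into the fluid in which sperm mature. Kazal and WFDC inhibitors block serine proteases, and many WFDC proteins also act against bacteria. Cystatins block cysteine cathepsins, lipocalins carry small hydrophobic ligands such as retinoids, and CRISP proteins bind to the sperm surface. Many of these genes lie in tandem clusters and depend on androgen and on luminal factors in the adult duct.

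The clusters were visible in the gene order. Of the 49 members, 31 lie directly beside another member among protein-coding genes of a RefSeq gene table for GRCm38.p6. The run from Wfdc2 to Wfdc3 holds 14 genes, 10 of them members, interleaved with the Kunitz inhibitor genes Spint3, Spint4 and Spint5 and with Eppin, whose protein coats sperm. Within it, Wfdc8 and Wfdc6b are transcribed away from each other. One of the listed Wfdc8 start sites lies 73 bases from that of Wfdc6b. The intervening sequence (RefSeq, GRCm38.p6, chr2:164613627-164613699, plus strand) is shown because this pair shares 1 short stretch of DNA, both genes had signal above the array median on all 10 arrays, and both had their lowest signal on cyclopamine replicate 2.
Wfdc8 to Wfdc6b: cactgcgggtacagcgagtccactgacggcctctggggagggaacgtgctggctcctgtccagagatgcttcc

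Of the members, 5 (10.2%) differed between SAG and cyclopamine in the tests described further on, against 11.3% of all probe sets. The calls of Crisp3 and Wfdc17 were lost in some alternatives. The 250 bases before the start site were found in RefSeq tables for 4 of these 5 members, all but Spink8. They are shown as the sequences directly upstream of the members that passed, each 5′ to 3′ on the strand of its gene in GRCm38.p6. Capitals mark matches to 2 of the 3 motifs searched on both strands, TATAAA (the TATA box) and TGTTCT (a half-site bound by androgen and glucocorticoid receptors). The third, GACCACCCA (the site bound by GLI factors), had no match in these windows, and the motifs do not overlap here. The windows are Wfdc2 at chr2:164562465-164562714 on the plus strand, Wfdc15b at chr2:164221664-164221913 on the minus strand, Crisp3 at chr17:40242289-40242538 on the minus strand and Wfdc17 at chr11:83703806-83704055 on the plus strand.
Wfdc2: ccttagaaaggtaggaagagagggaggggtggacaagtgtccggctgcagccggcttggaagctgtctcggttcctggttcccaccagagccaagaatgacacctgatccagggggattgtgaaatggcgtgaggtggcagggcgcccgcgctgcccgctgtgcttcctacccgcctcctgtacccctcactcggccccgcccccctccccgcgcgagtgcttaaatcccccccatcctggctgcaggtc
Wfdc15b: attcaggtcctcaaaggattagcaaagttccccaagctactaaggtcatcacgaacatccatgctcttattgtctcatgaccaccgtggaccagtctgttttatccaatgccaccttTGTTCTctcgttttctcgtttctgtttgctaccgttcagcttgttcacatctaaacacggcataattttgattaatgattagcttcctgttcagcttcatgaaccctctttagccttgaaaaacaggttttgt
Crisp3: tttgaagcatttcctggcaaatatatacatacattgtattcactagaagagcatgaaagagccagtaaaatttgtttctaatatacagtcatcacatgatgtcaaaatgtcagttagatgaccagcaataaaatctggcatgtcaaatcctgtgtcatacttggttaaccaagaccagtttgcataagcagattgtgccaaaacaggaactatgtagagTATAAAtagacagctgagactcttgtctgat
Wfdc17: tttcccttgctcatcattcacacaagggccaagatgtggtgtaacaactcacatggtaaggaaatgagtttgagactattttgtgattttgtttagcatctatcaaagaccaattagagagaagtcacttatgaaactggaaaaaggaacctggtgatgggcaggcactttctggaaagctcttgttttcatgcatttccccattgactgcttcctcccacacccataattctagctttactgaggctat
The Crisp3 window held TATAAA starting 31 bases before the start site, and the Wfdc15b window held TGTTCT 133 bases before it. Over all 32851 windows of this length in the table, 12.4% held TATAAA, 16.1% held TGTTCT and 0.225% held GACCACCCA on either strand. Among the 38 windows of the 33 members with a window, 7 held TATAAA, 8 held TGTTCT and 1, of Lcn6, held GACCACCCA. These matches describe letters in the windows only.

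Array medians lay between 7.55 and 7.70 on the log2 scale. The 1412 probe sets of olfactory and vomeronasal receptors, which should be silent in this tissue, had their 95th percentile between 5.90 and 6.24. Epithelium, smooth muscle and mesenchyme markers had signal in every group. The mean over 12 epithelium genes was 10.38 to 10.99 on the SAG arrays, 12.81 to 13.63 on the cyclopamine arrays and 11.44 to 12.32 on the vehicle arrays, without overlap. Of these 12 genes, 2 were lower with SAG than with vehicle, 6 were higher with cyclopamine than with vehicle and 11 were lower with SAG than with cyclopamine. Over all probe sets the shares in these directions were 0.279%, 2.17% and 5.92%. Of 7 smooth muscle genes, 6 fell with cyclopamine against vehicle, where 2.95% of all probe sets did. SAG replicate 1 and cyclopamine replicate 2 stood apart from the other arrays of their groups for many members, so the results that rest on them are given with and without them.

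Only a minority of the families had signal above the array median. With SAG 8 of the 49 members (16.3%) lay above it, against 50% of all probe sets, which is the share the median fixes. With cyclopamine the count was 15 (30.6%, against 50.1%) and with vehicle 11 (22.4%, against 50%). These counts use group means, and single arrays disagreed. Above the median of the array there were 6, 10, 8 and 10 members on the SAG arrays. On the cyclopamine arrays there were 15, 9 and 17, and on the vehicle arrays 12, 11 and 9. Members above the median in every group numbered 8, and 34 were not above it in any group. A lower bar, the 95th percentile of the olfactory and vomeronasal receptor probe sets, was passed by the same number, 19 of 49 (38.8%), in each group, against 62.5%, 63.8% and 63.3% of all probe sets with SAG, cyclopamine and vehicle. The other 30 members had mean signals in the range of genes that should be silent. Probe sets differ in their response, so a level above the median is not a call of detection, and levels of different genes are not set against each other.

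**Figure D1:**
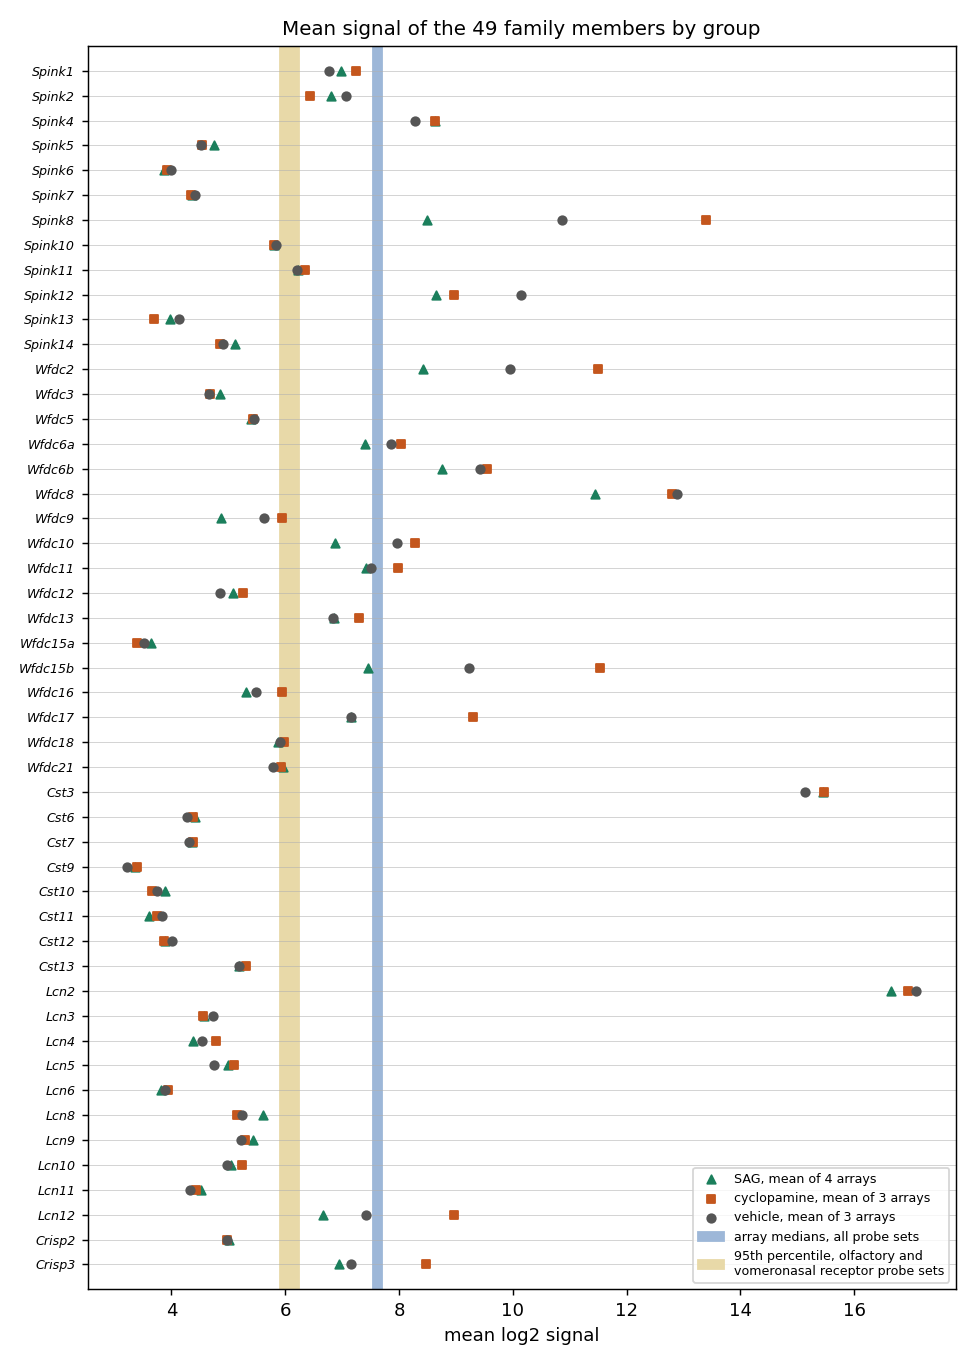
Mean log2 signal of each of the 49 members (horizontal axis) in the 4 SAG, 3 cyclopamine and 3 vehicle arrays, with genes down the page by family. The blue band is the range of array medians and the yellow band the range of the 95th percentile of olfactory and vomeronasal receptor probe sets. Of the 49 members, 15 have a mean above the median in some group and 30 do not exceed the silent-gene level in any group.

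Among the Kazal inhibitors, 3 of 12 were above the array median in each of the groups. They were Spink4, known from secretory cells of the gut, Spink8 and Spink12. Spink4 varied little, with 8.47 to 8.75 on the SAG arrays, 8.30 to 8.81 on the cyclopamine arrays and 8.17 to 8.39 on the vehicle arrays. Spink1, the pancreatic secretory trypsin inhibitor, Spink2, an inhibitor of acrosin in sperm, and Spink11 lay between the silent-gene level and the median. The other 6, among them Spink5, an inhibitor of skin kallikreins, did not exceed the silent-gene level. Spink13, known from the adult rat epididymis, averaged 3.97 ± 0.25 with SAG, 3.69 ± 0.17 with cyclopamine and 4.14 ± 0.27 with vehicle (SD, n = 4, 3 and 3).

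Of the 17 WFDC genes, 3 were above the median with SAG, 8 with cyclopamine and 6 with vehicle. Wfdc2 (HE4), a secreted protein of many epithelia, Wfdc6b and Wfdc8 were above it in every group. Wfdc6a, Wfdc10 and Wfdc15b (SWAM1, a WFDC protein with antibacterial activity) were above it with cyclopamine and vehicle but not with SAG. Wfdc11 and Wfdc17 (Amwap, a WFDC protein of activated macrophages and microglia) exceeded it with cyclopamine alone. The run from Wfdc2 to Wfdc3 held 5 of the 6 members above the median in vehicle ducts, and the exception, Wfdc15b, lies in a second block beside the seminal vesicle gene Svs2. Paralogs such as Wfdc6a and Wfdc6b may share signal between probe sets, which was not tested.

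Of the cystatins, 1 of 8 was above the median. Cst3, cystatin C, the widely secreted inhibitor of cathepsins, had 15.14 to 15.61 on the SAG arrays, 15.10 to 15.68 on the cyclopamine arrays and 15.02 to 15.35 on the vehicle arrays. The 7 others were at the silent-gene level in every group, including the epididymal and testicular genes Cst11 (CRES2), Cst12 (CRES3) and Cst9 (testatin). Cst11 averaged 3.60 ± 0.10 with SAG, 3.74 ± 0.29 with cyclopamine and 3.83 ± 0.15 with vehicle (SD, n = 4, 3 and 3). Cst10 averaged 3.88 ± 0.11, 3.67 ± 0.08 and 3.75 ± 0.30 with SAG, cyclopamine and vehicle.

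The lipocalins were split in the same way. Lcn2, which binds bacterial siderophores and is induced in stressed epithelia, had 16.22 to 16.96 on the SAG arrays, 16.52 to 17.29 on the cyclopamine arrays and 16.95 to 17.19 on the vehicle arrays. Of 8 measured neutrophil markers, a cell type that also carries Lcn2 protein, 7 did not exceed the silent-gene level in any group. Which cells gave the Lcn2 signal was not tested. Lcn12, an epididymal lipocalin of the mouse that binds retinoic acid, was above the array median with cyclopamine alone. The other 8, among them the adult epididymal genes Lcn5 (E-RABP, a retinoic acid carrier), Lcn6, Lcn8 (mEP17, of the initial segment), Lcn9 and Lcn10, did not exceed the silent-gene level. Lcn8 averaged 5.61 ± 0.17 with SAG, 5.16 ± 0.20 with cyclopamine and 5.23 ± 0.57 with vehicle (SD, n = 4, 3 and 3). Of the CRISP genes, Crisp2 of the testis was silent by the same measure, and Crisp3 is described with the treatments.

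SAG was first compared with vehicle, which asks whether activating the hedgehog pathway altered these genes. None of the 49 members passed limma's test at an adjusted p under 0.05, against 0.73% of all probe sets (0.45% higher and 0.279% lower). At an unadjusted p under 0.05 there were 5 members (10.2%), against 10.8% of probe sets. The 1 with higher signal was Spink4 (0.35 ± 0.15 SE on the log2 scale, against 5.25% of probe sets) and the 4 with lower signal were Spink8, Wfdc15b, Wfdc2 and Spink12 (5.51%). The median log2 change over the members was -0.04, beside 0.01 over all probe sets, and 21 members (42.9%) had a change above 0, against 52.1% of probe sets.

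The inhibitor Spink8 had the lowest change. Its signal was 6.85, 9.49, 8.99 and 8.62 on the 4 SAG arrays, against 10.51, 11.65 and 10.47 on the vehicle arrays. Every SAG array lay below every vehicle array, with a change of -2.38 ± 0.56 (SE), and the difference did not pass (limma adjusted p = 0.102). Wfdc15b (-1.79 ± 0.59, adjusted p = 0.270), Wfdc2 (-1.52 ± 0.51, adjusted p = 0.279) and Spink12 (-1.49 ± 0.62, adjusted p = 0.406, all limma) likewise had no overlap between the SAG and the vehicle arrays. Arrays did not overlap downward for 5 of 49 members (10.2%), against 6.63% of probe sets, and upward for 2 (4.08%), against 6.25%. Without SAG replicate 1 and cyclopamine replicate 2 together, Spink8 (-1.84, limma adjusted p = 0.0499) and Wfdc2 (-1.19, limma adjusted p = 0.0430) were lower with SAG. That removal was added after the data were seen, and the share of all probe sets called under it is not given here. Without SAG replicate 1 alone, 0 members passed (Spink8 -1.84, limma adjusted p = 0.0868).

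Cyclopamine was then compared with vehicle, which asks the same of pathway inhibition. Spink8 rose, 1 of 49 members (2.04%), against 5.12% of all probe sets in either direction and 2.17% upward. No member fell (2.95% of probe sets did). At an unadjusted p under 0.05, 9 members (18.4%) differed, against 18.9% of probe sets. Of these, 7 were higher (14.3%, against 8.96%) and 2 lower (4.08%, against 9.9%). Arrays did not overlap upward for 8 of 49 members (16.3%), against 11.2% of probe sets, and downward for 1 (2.04%), against 11.9%. The median log2 change over the members was 0.11, beside 0.02 over all probe sets, and 32 members (65.3%) had a change above 0, against 52.5%. This comparison and that of SAG share the 3 vehicle arrays.

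Spink8 had 13.25, 12.86 and 14.08 on the cyclopamine arrays, against 10.51, 11.65 and 10.47 on the vehicle arrays. Every cyclopamine array lay above every vehicle array, a 5.74-fold rise (2.52 ± 0.60 SE on the log2 scale, limma adjusted p = 0.0390). The call did not hold when 1 array was left out from among vehicle replicate 1 (limma adjusted p = 0.132), vehicle replicate 3 (0.118), SAG replicate 3 (0.0550), SAG replicate 4 (0.0587), cyclopamine replicate 1 (0.0806) and cyclopamine replicate 3 (0.117). Without cyclopamine replicate 2 it held (2.79, limma adjusted p = 0.0367). The change itself stayed between 2.18 and 2.91 in these and the other alternatives.

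Wfdc15b and Wfdc17 came near the threshold. Wfdc15b had 11.64, 10.25 and 12.70 with cyclopamine, against 8.999, 10.36 and 8.36 with vehicle (2.29 ± 0.64, limma adjusted p = 0.0685). Cyclopamine replicate 2 lay below vehicle replicate 2, so the groups overlapped. Wfdc17 had 10.52, 8.77 and 8.59 with cyclopamine, against 7.36, 6.83 and 7.29 with vehicle, without overlap (2.13 ± 0.59, limma adjusted p = 0.0682). Both passed when the arrays were weighted (limma adjusted p = 0.0374 and 0.0478). With 1 array left out, Wfdc15b passed only without vehicle replicate 2 (limma adjusted p = 0.0480) or cyclopamine replicate 2 (0.0156). Wfdc17 passed only without SAG replicate 1 (limma adjusted p = 0.0373). Neither gene passed with a further quantile normalization, median centring, the filter on dim probe sets, only the groups compared, a variance trend or gene means.

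**Figure D2:**
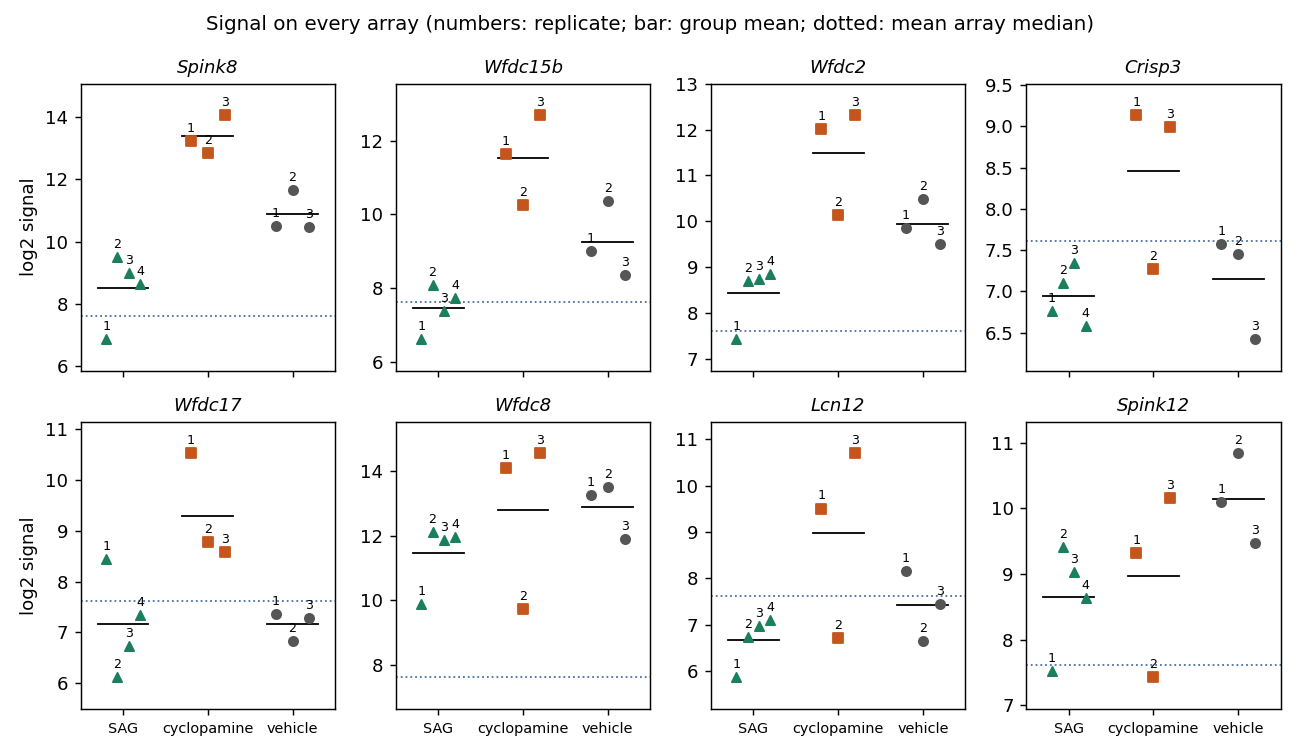
Log2 signal (vertical axis) of 8 members on every SAG, cyclopamine and vehicle array, each point labelled with its replicate number. Bars are group means and the dotted line the mean of the array medians. For Spink8 the groups do not overlap, while for Wfdc8, Lcn12 and Spink12 cyclopamine replicate 2 lies below or within the range of the SAG arrays.

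SAG was last set directly against cyclopamine, the activated against the inhibited state. Of the 49 members, 5 were lower with SAG than with cyclopamine (10.2%) and none was higher, against 5.92% and 5.42% of all probe sets and 11.3% in either direction. The 5 were Spink8, Wfdc15b, Wfdc2, Wfdc17 and Crisp3. At an unadjusted p under 0.05 there were 8 members lower and 0 higher (limma), against 11.9% and 11.5% of probe sets. All SAG arrays lay below all cyclopamine arrays for 5 of 49 members (10.2%), against 2332 of 22206 probe sets. They lay above all cyclopamine arrays for 4 members (8.16%), against 2366 probe sets. Neither share of members exceeded that of all probe sets. The median change over the members was -0.11, beside 0.01 over all probe sets, and 18 members (36.7%) had a change above 0, against 51.5%. Over the 34 members not above the array median in any group the median change was -0.01. These 34 were picked by the same group means, which leaves out members that were high in a single group. The value is therefore only a description.

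Spink8 was 30.0-fold lower with SAG than with cyclopamine (-4.91 ± 0.56, limma adjusted p = 0.000296). Wfdc15b had 6.61, 8.08, 7.37 and 7.73 on the SAG arrays, against 11.64, 10.25 and 12.70 on the cyclopamine arrays, and was 16.9-fold lower (-4.08 ± 0.59, limma adjusted p = 0.00127). Wfdc2 had 7.43, 8.70, 8.74 and 8.84 on the SAG arrays, against 12.02, 10.13 and 12.32 on the cyclopamine arrays, and was 8.35-fold lower (-3.06 ± 0.51, limma adjusted p = 0.00305). For each of these 3 inhibitors all SAG arrays lay below all cyclopamine arrays, and the call held with any single array left out and in each other alternative run. Epithelium markers moved with them: their mean change between SAG and cyclopamine was -2.62, from -5.21 for Pax2 to -1.90 for Krt18 among the 11 that passed. The part of epithelial content in these differences was not tested.

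**Figure D3:**
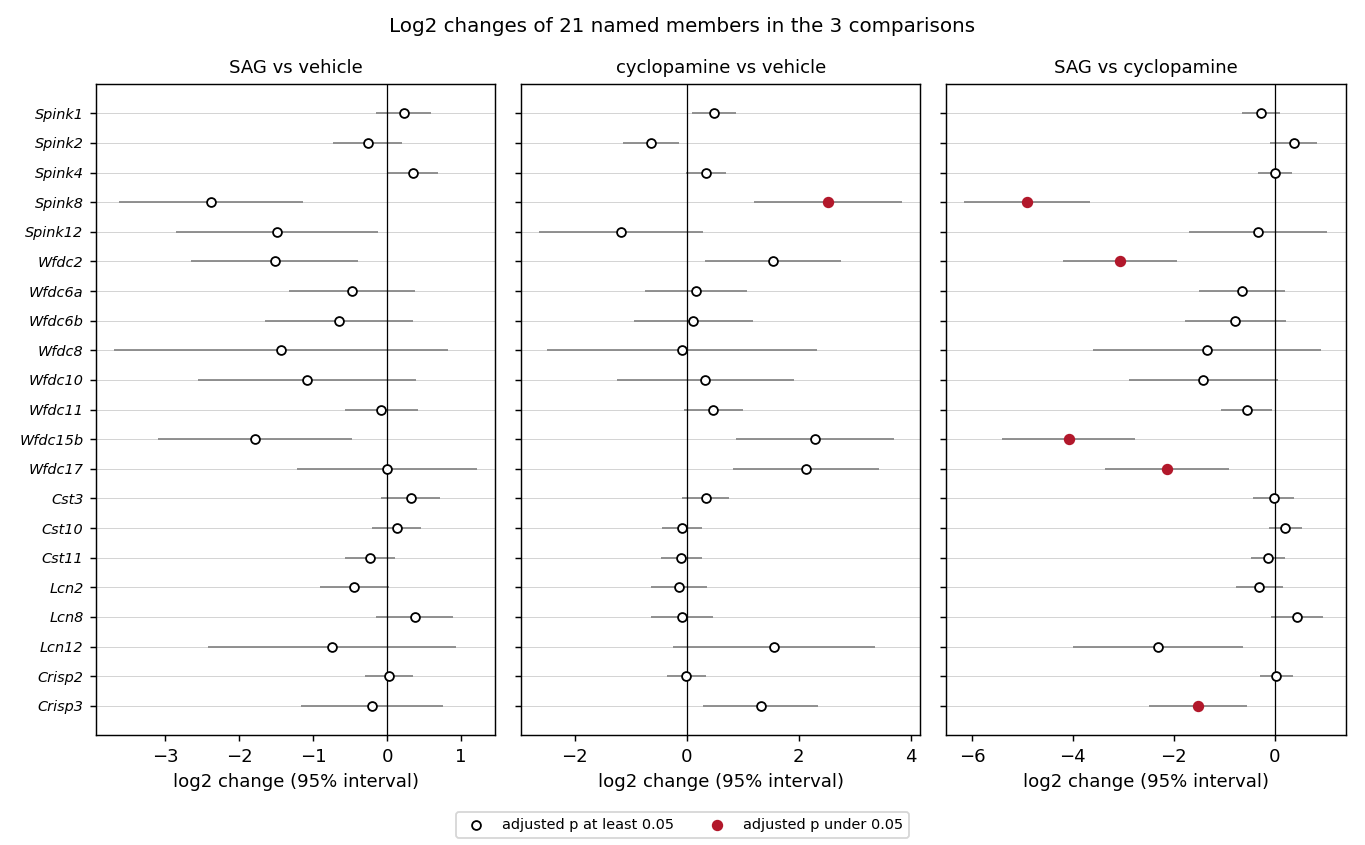
Log2 change with its 95% interval (horizontal axis) for the 21 members named by rule, with each comparison in its own panel. Filled red points passed limma's test over all probe sets: 0, 1 and 5 members.

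Wfdc17, the macrophage-associated WFDC gene, had 8.44, 6.11, 6.73 and 7.35 on the SAG arrays, against 10.52, 8.77 and 8.59 on the cyclopamine arrays. All SAG arrays lay below all cyclopamine arrays (-2.13 ± 0.55, limma adjusted p = 0.0302), with the highest SAG array, replicate 1, close to the lowest cyclopamine array. The call did not hold without SAG replicate 2 (adjusted p = 0.0755), 3 (0.0786) or 4 (0.0594), or cyclopamine replicate 1 (0.108, change -1.52), and with only the groups compared in the fit (0.0674, all limma). Macrophage markers did not move as 1 group: of 11 genes, 1 (Aif1) was higher with SAG than with cyclopamine, 2 (Fcer1g and Tyrobp) were lower, and Fcer1g was higher with cyclopamine than with vehicle. The mean of the macrophage list was 9.36 to 10.04 on the SAG arrays, 9.29 to 10.68 on the cyclopamine arrays and 9.47 to 9.92 on the vehicle arrays. It was highest on cyclopamine replicate 1, the array with the highest Wfdc17 signal, and its part in that signal was not tested. Wfdc17 lies directly beside the chemokine gene Ccl4.

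Crisp3, a secreted CAP-domain protein known from the salivary gland, had 6.76, 7.10, 7.34 and 6.58 on the SAG arrays, against 9.14, 7.27 and 8.99 on the cyclopamine arrays. Cyclopamine replicate 2 lay within the SAG range. The difference passed narrowly (-1.52 ± 0.44, limma adjusted p = 0.0482). The call was lost in 10 of 19 alternatives, 8 of them the removal of 1 array, namely vehicle replicate 1 or 2, any SAG replicate, or cyclopamine replicate 1 or 3. Without cyclopamine replicate 1 the change was -1.18 (limma adjusted p = 0.174), and without cyclopamine replicate 2 it was -2.12 (limma adjusted p = 0.00157).

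The members that did not pass included the cathepsin inhibitor Cst3 and the siderophore binder Lcn2. Cst3 differed by 0.32 with SAG against vehicle (95% interval -0.08 to 0.72) and by 0.34 with cyclopamine against vehicle (-0.09 to 0.76). Lcn2 differed by -0.45 with SAG (95% interval -0.91 to 0.02) and by -0.14 with cyclopamine (-0.64 to 0.35). Neither passed in any of the 3 comparisons, and each of these intervals lies within 1 log2 unit of 0. For Spink1 (0.49 ± 0.18 with cyclopamine against vehicle, limma adjusted p = 0.164) and Spink2 (-0.64 ± 0.23) the differences did not pass either. Crisp2 (0.02 ± 0.15 with SAG and -0.01 ± 0.16 with cyclopamine against vehicle) showed none beyond its error.

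A second set of members had wide intervals, and arrays of 1 group disagreed. Wfdc8, a protein of several WFDC domains, had 9.88, 12.10, 11.85 and 11.97 on the SAG arrays, 14.10, 9.73 and 14.55 on the cyclopamine arrays and 13.25, 13.50 and 11.89 on the vehicle arrays. Cyclopamine replicate 2 was thus the lowest of all 10 arrays, while the other cyclopamine arrays were the highest. Lcn12 had 5.86, 6.74, 6.97 and 7.11 with SAG, 9.51, 6.71 and 10.70 with cyclopamine and 8.16, 6.64 and 7.44 with vehicle. Spink12 had 7.53, 9.41, 9.02 and 8.63 with SAG, 9.32, 7.42 and 10.16 with cyclopamine and 10.10, 10.84 and 9.47 with vehicle. In each of these the array set apart in the cyclopamine group was replicate 2, and the lowest SAG array was replicate 1.

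The same array was the lowest of its group for most of the 15 members above the median in some group. Cyclopamine replicate 2 was lowest for 13 of 15 (86.7%), against 35.0% of all probe sets. SAG replicate 1 was lowest for 10 of 15 (66.7%, against 27.7%) and vehicle replicate 3 for 11 of 15 (73.3%, against 32.8%). Cyclopamine replicate 2 lay more than 1 log2 unit below the mean of the other cyclopamine arrays for 9 of the 15 (60%), against 3.35% of all probe sets, and SAG replicate 1 below the other SAG arrays for 6 (40%), against 1.08%. Over all 49 members the counts were 10 (20.4%) and 6 (12.2%). The 15 were picked by their mean signal and the probe sets were not, and 4 of the 15 (Crisp3, Lcn12, Wfdc11 and Wfdc17) were above the median with cyclopamine alone, so the shares are a description. The gap on cyclopamine replicate 2 was -4.60 for Wfdc8, -3.39 for Lcn12, -2.94 for Wfdc10, -2.31 for Spink12, -2.04 for Wfdc2 and -1.93 for both Wfdc6b and Wfdc15b. The mean of the 12 epithelium genes had a gap of -0.64 on that array, and at 12.81 it remained above all SAG and vehicle arrays. Of these 12 genes, 9 were lowest on cyclopamine replicate 2 in its group, 6 on SAG replicate 1 and 11 on vehicle replicate 3, and their part in the members' pattern was not tested. Spink8 had a gap of -0.80 there and Spink4 one of 0.23.

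**Figure D4:**
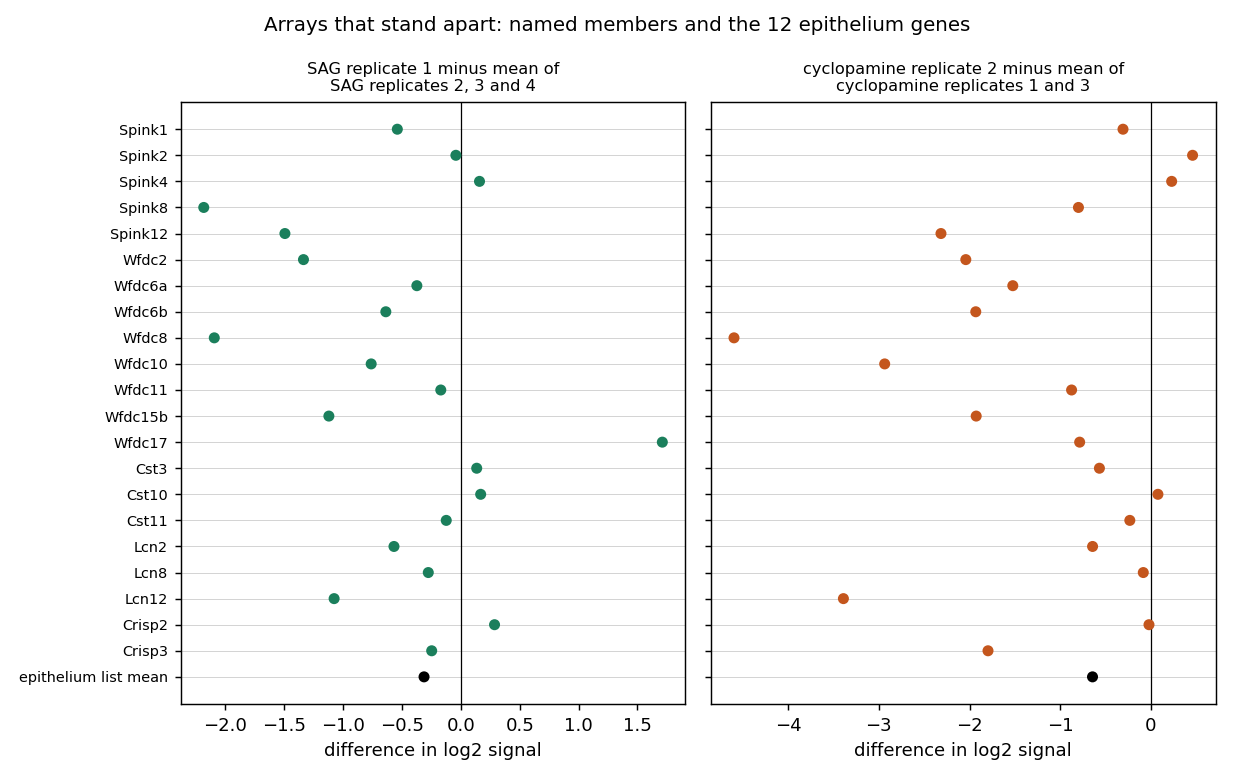
Difference in log2 signal (horizontal axis) between 1 array and the mean of the others of its group, for the 21 members named by rule and for the mean of 12 epithelium genes (black). On the left SAG replicate 1, on the right cyclopamine replicate 2, where Wfdc8 (-4.60) and Lcn12 (-3.39) lie farthest below and the epithelium mean is at -0.64.

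Without cyclopamine replicate 2, 6 members were higher with cyclopamine than with vehicle: Spink8, Wfdc15b (2.93), Lcn12 (2.69), Wfdc2 (2.22), Crisp3 (1.92) and Wfdc11 (0.77, limma adjusted p from 0.00908 to 0.0380 for the 5 after Spink8). SAG against cyclopamine then gave 12 lower members in place of 5, adding Lcn12 (-3.44), Wfdc8 (-2.88), Wfdc10 (-2.39), Wfdc6b (-1.42), Wfdc6a (-1.15), Wfdc11 (-0.85) and Wfdc16. Without both that array and SAG replicate 1 the counts were 8 and 11. Removing an array because it disagrees makes the remaining ones agree, so these counts describe how far 1 culture bears on the result. The shares of all probe sets called without these arrays are not given here. The higher counts can therefore not be read as particular to these families.

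Relatives outside the symbol rule gave a background for these changes, with lists chosen from general knowledge and no set test. Over all probe sets 2.17% rose and 2.95% fell with cyclopamine against vehicle. With SAG against cyclopamine 5.92% were lower and 5.42% higher, and with SAG against vehicle 0.45% were higher and 0.279% lower. Of 22 measured other luminal protease inhibitors, 0 passed with SAG against vehicle, 1 rose with cyclopamine (Cstb, cystatin B, a cytosolic cathepsin inhibitor, 0.83 ± 0.17, limma adjusted p = 0.0220), and 3 were lower with SAG than with cyclopamine. These 3 were Cstb and the membrane-bound Kunitz inhibitors of epithelia, Spint1 (-2.66 ± 0.33) and Spint2 (-1.88 ± 0.31). Eppin, which lies between Wfdc6a and Wfdc8, had 4.51, 6.10, 6.14 and 5.73 on the SAG arrays, 7.19, 5.62 and 8.06 on the cyclopamine arrays and 7.24, 7.30 and 5.99 on the vehicle arrays, and did not pass. As with its neighbours, cyclopamine replicate 2 and SAG replicate 1 were the lowest arrays of their groups.

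Serine and cysteine proteases, the enzyme classes that such inhibitors block, were listed as well. A few genes of each list rose with cyclopamine against vehicle, and most, 19 of 23 and 9 of 11, did not pass. Whether the members inhibit these proteases was not tested. Among 23 trypsin-like and kallikrein proteases, 4 rose with cyclopamine against vehicle, none fell, and 7 were lower with SAG than with cyclopamine. Over all probe sets 2.17% rose, 2.95% fell and 5.92% were lower in the same comparisons. Of the 12 epithelium genes 6 also rose with cyclopamine, and the part of epithelial content in these changes was not tested. Plau, urokinase (2.86 ± 0.46), and the epithelial membrane proteases Prss8 (1.70 ± 0.37), Tmprss4 (1.69 ± 0.40) and St14 (1.41 ± 0.36) were those that rose. Among 11 lysosomal cysteine proteases, the targets of cystatins, Ctsl (1.02 ± 0.17) and Ctss (1.57 ± 0.35) rose with cyclopamine, and 4 were lower with SAG than with cyclopamine, with Ctsh at -1.65 ± 0.21. No gene of either list passed with SAG against vehicle.

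Other secretory genes of the adult epididymis were set beside them. Of 36 measured, 20 did not exceed the silent-gene level in any group and 3 were above the array median in vehicle ducts. Adam7, a sperm-binding membrane protein of the epididymis (1.30 ± 0.31), and the beta-defensin gene Defb9 (0.93 ± 0.22) rose with cyclopamine against vehicle, and 34 did not pass. Clu, clusterin, was lower with SAG than with cyclopamine (-1.37 ± 0.17, limma adjusted p = 0.000527), as were Adam7, Defb9 and Defb2, while Bsph2 was higher (0.67 ± 0.19). Of 12 lipocalins outside the symbol rule, Ptgds, prostaglandin D synthase (-2.49 ± 0.54), and Mup5 (-1.90 ± 0.29), the only one that rose with cyclopamine against vehicle (1.24 ± 0.31), were lower with SAG than with cyclopamine, and Apod (3.31 ± 0.44) and Rbp4 (1.89 ± 0.34) were higher. Of 10 relatives of the CRISP proteins, Crispld1 was higher with SAG than with cyclopamine (4.93 ± 0.22), where Crisp3 was lower. It changed by 1.97 ± 0.22 in SAG against vehicle and -2.96 ± 0.24 in cyclopamine against vehicle (limma adjusted p = 0.00404 and 0.000121). In that family 1 of 10 was higher with SAG than with vehicle, 1 rose and 3 fell with cyclopamine, and 4 were higher with SAG than with cyclopamine. Of 4 measured genes of the androgen list, 0 passed in either comparison with vehicle, and 1 was higher and 1 lower with SAG than with cyclopamine.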

How the data were processed

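RNA of 10 cultures was measured on Affymetrix arrays with GeneChip WT Plus labelling, per the labels' protocols. The deposited values are log2 signals for 22206 probe sets. The log2 base was inferred from their range (2.95 to 18.75). The sources used here do not say how the signals were summarized or normalized, or with which software. A platform table named 19572 probe sets with 1 gene symbol and left 2634 unnamed here; all 49 members matched a RefSeq table of GRCm38.p6, with 0 changed symbols, and 33 had a promoter window.

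With limma 3.58.1 in R 4.3.3, a mean per group was fitted to all 10 arrays (7 residual degrees of freedom, eBayes). Each two-sided p was adjusted by Benjamini and Hochberg's method over the whole array, and 0.05 was the threshold. The SE of a log2 change is limma's moderated one. The number of arrays limits precision. The scripts were tested on simulated data.

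Members and lists were chosen with earlier results of these data known. Genes were named by rule: members that passed, members above the array median in a group, and the 3 smallest p in each family. From lists, up to 4 genes that passed were named per comparison. Spink13, Wfdc16, Eppin and other members given by level were named after their values were seen. Same-numbered arrays did not deviate together (correlations -0.19 to 0.24), so replicate numbers were taken as names. Alternatives were a further quantile normalization, median centring, a filter on the dimmest 25% by mean, fits of the compared groups alone, a variance trend, array weights, the replicate block, gene means and leaving out each array.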

Additional observations from a re-analysis of the deposited data

Results flagged for a closer look

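Among the 21 members named by rule, the 4 SAG arrays were searched for a value far from the others by Dixon's ratio, and 2 members had one, both on SAG replicate 1. Wfdc2 was at 7.43 on that array, against 8.70 to 8.84 on the other SAG arrays. Wfdc8 was at 9.88, against 11.85 to 12.10. Chance alone flags about 1 in 20 groups, and the signals of neighbouring genes are not independent. The cyclopamine and vehicle groups, with 3 arrays each, were not searched in this way.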

How the results depend on the processing

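The 0 members called with SAG against vehicle stayed at 0 in each alternative but 1, the removal of both SAG replicate 1 and cyclopamine replicate 2, which was added after seeing the data and gave 2 lower. The count of 1 risen member with cyclopamine was 3 with array weights, 8 without those 2 arrays and 0 to 6 with each array left out in turn. With the replicate block it was again 1, but Wfdc17 (limma adjusted p = 0.0299) in place of Spink8 (0.0623). The count of 5 lower with SAG than with cyclopamine was 3 with only the groups compared, 4 with the replicate block, 7 with array weights, 11 without those 2 arrays and 3 to 12 with each array left out in turn. Median centring, a further quantile normalization, the filter on dim probe sets, a variance trend and gene means left these counts unchanged. Above the array median on every array of the group there were 5 members with SAG and 9 with cyclopamine. By group mean, 19 with SAG and 19 with vehicle were above the 95th percentile of olfactory and vomeronasal receptor genes. Of 1188 log2 changes of named members under alternatives, 52 had the opposite sign to the reported one, none where either value passed. The largest reported change among those was 0.33. Near the silent-gene level, array signals compress differences. Shares of all probe sets called under the alternatives are not given here, and the causes of these shifts were not tested.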
